A study of Schizosaccharomyces pombe with 2 samples.

Results

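The mug (meiotically upregulated gene) and meu (meiotic expression upregulated) genes of *S. pombe* were taken from the RefSeq annotation of the ASM294v3 assembly as every protein-coding gene on chromosomes I, II and III whose symbol is mug or meu followed by a number. The rule used names and no measured value. It gave 110 members, 91 mug and 19 meu genes, of 5113 protein-coding genes, with 54 members on chromosome I, 30 on chromosome II and 26 on chromosome III. The transcript models over these genes were counted on each strand in 2 PacBio Iso-Seq libraries, in which long reads of cDNA give the start, end, strand and exons of a transcript.

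Fission yeast enters meiosis when nutrients run out and cells of opposite mating type fuse. The resulting diploid recombines its chromosomes, divides and packs the products into spores. Mug and meu genes were named in screens for transcripts that become abundant during this programme. Many are held low in growing cells by weak transcription and by nuclear RNA elimination, in which the YTH protein Mmi1 binds meiotic transcripts at TNAAAC repeats and hands them to the decay machinery, while the forkhead factor Mei4 switches on many of the middle genes of meiosis through GTAAACA-type sites. The cells of this series were growing cells and no meiotic sample was among them, so every value below describes these genes outside the programme they are named for.

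The stress pool was labelled as a mix of WT cells and cells that carry hrp1del::kanMX together with hrp3del, some of them untreated, some exposed to caffeine (14 mM) and some to clotrimazole (200 ng/ml), an antifungal that blocks ergosterol synthesis. Hrp1 and Hrp3 are CHD-family chromatin remodellers. The other library held untreated WT cells. All strains were h+ cells with the ade6-M216, ura4-D18 and leu1-32 alleles, grown in rich YES medium at 32 °C to mid-log phase. Each condition had 1 library and no replicate, and the series describes separate sequencing runs although the labels give both libraries the same batch, so genotype, treatment, run and depth cannot be told apart and no test was made between the libraries. In such bulk RNA, fewer cells that express a gene and less RNA per cell cannot be told apart either.

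The stress pool file held 69996 models and the untreated WT file 26120, of which 69823 and 26057 lay on chromosomes I, II and III. The files give no read numbers, so depth is unknown and a gene without a model may lie under the detection limit. On ASM294v3, 89.7% of 9081 distinct introns in the stress pool and 97.2% of 5499 in untreated WT began with GT and ended with AG, against 0.187% and 0.145% once positions were shifted by 10 nt. The deleted hrp3 had 8 same-strand models in the stress pool, 3 of them with a gap over most of the coding span, and 5 in untreated WT with no such gap. The deleted hrp1 had 6 in the stress pool and 5 in untreated WT, none with such a gap. Over all protein-coding genes the median number of same-strand models was 10 per gene in the stress pool and 4 in untreated WT.

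The promoters of the members were examined first, since they do not depend on the transcript models. GTAAACA, the core letters of a forkhead site, lay on either strand between 250 bases before and 50 bases after the annotated start of 54 of 110 members (49.1%, exact 95% interval 39.4 to 58.8%), against 844 of 5113 protein-coding genes (16.5%). It lay on the gene's own strand in 22 members, on the opposite strand in 42 and on both in 10, and 21 members had 2 or more copies. The window was anchored on annotated starts, and 46 of 110 members, against 601 of all 5113 genes, have no annotated 5′ UTR, so that the first codon stood in for their start. Anchored on the transcript models of the stress pool instead, the 100 bases before the middle start of the full-length models held the letters in 28 of 91 members (30.8%) and in 298 of 4829 protein-coding genes (6.17%). This second window was chosen after the first result was seen. A match of letters is a description and not a site.

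To show what these windows hold, the copies of 3 members are printed. Of the 36 members without a same-strand model in untreated WT, 11 had at least 3 full-length models in the stress pool. A copy lay in the window of 5 of these, mug20 and mug95 besides the 3 printed, and 6 had none. Each copy has 10 bases on each side and is read along the gene's strand, with the motif in capitals. TGTTTAC is GTAAACA on the opposite strand.
mug143, chrI:1549944-1549970, 179 bases before the first codon: tatatatttaTGTTTACactaaaactg
meu17, chrII:2213516-2213542, 160 bases before the first codon: cctctgttttTGTTTACtaataaacaa
meu25, chrII:1563691-1563717, 201 bases before the first codon: gtttcgtaaaGTAAACAagttaaattg
meu25, chrII:1563790-1563816, 102 bases before the first codon: tttaaagtttTGTTTACtttcctcagt
meu25, chrII:1563844-1563870, 48 bases before the first codon: atgatccataGTAAACAaacattcaac
The copy of mug143 began 115 bases upstream of the middle start of its full-length stress pool models, outside the window of 100 bases. In meu17, a predicted glucan-alpha-1,4-glucosidase, the middle start lay 145 bases before the first codon, so the copy began 15 bases further upstream. In meu25 the middle start lay 29 bases before the first codon and all 3 copies lay upstream of it. The printed copies do not stand for all copies. That of mug95 lay inside its coding sequence, 212 bases downstream of its middle start. All 3 full-length models of mug20 also covered the downstream gene pib1, so no middle start was taken. Of the 70 copies with a middle start to compare, 47 lay upstream of it. The search window reached much further before the annotated start than after it, so a majority upstream follows from the window. No such count is given for other genes, so this one cannot show that the copies of the members favour a position. The motif was found in 17 of the 36 members without a same-strand model in untreated WT (47.2%) and in 37 of the 74 members that had such a model, against 65 of 421 other genes without one (15.4%). TNAAAC, the letters bound by Mmi1, occurred at a median of 1.78 per kb of coding sequence in the members and 1.52 in all protein-coding genes. The median was 2.27 per kb in the 36 members without a same-strand model in untreated WT, against 1.00 in the 421 other genes without one, which are shorter (median coding length 770 and 384 nt).

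Most members had a transcript model in the stress pool, and 36 of 110 had none in untreated WT. A same-strand model, defined as exons that overlap the coding exons on the gene's own strand by at least 1 nt, was present for 106 of 110 members in the stress pool (96.4%, exact 95% interval 91.0 to 99.0%) and for 74 in untreated WT (67.3%, 57.7 to 75.9%). Over all protein-coding genes the shares were 98.7% in the stress pool and 91.1% in untreated WT. Models that covered every coding base from first codon to stop codon, called full-length here, were present for 98 members in the stress pool (89.1%, 81.7 to 94.2%) and for 63 in untreated WT (57.3%, 47.5 to 66.7%), against 96.4% and 87.7% of all protein-coding genes. The interval of the members therefore lay below the share of all genes in untreated WT for both measures, and for full-length models in the stress pool as well. For same-strand models in the stress pool it spanned the share of all genes. The intervals cover counting error over genes only.

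**Figure D1:**
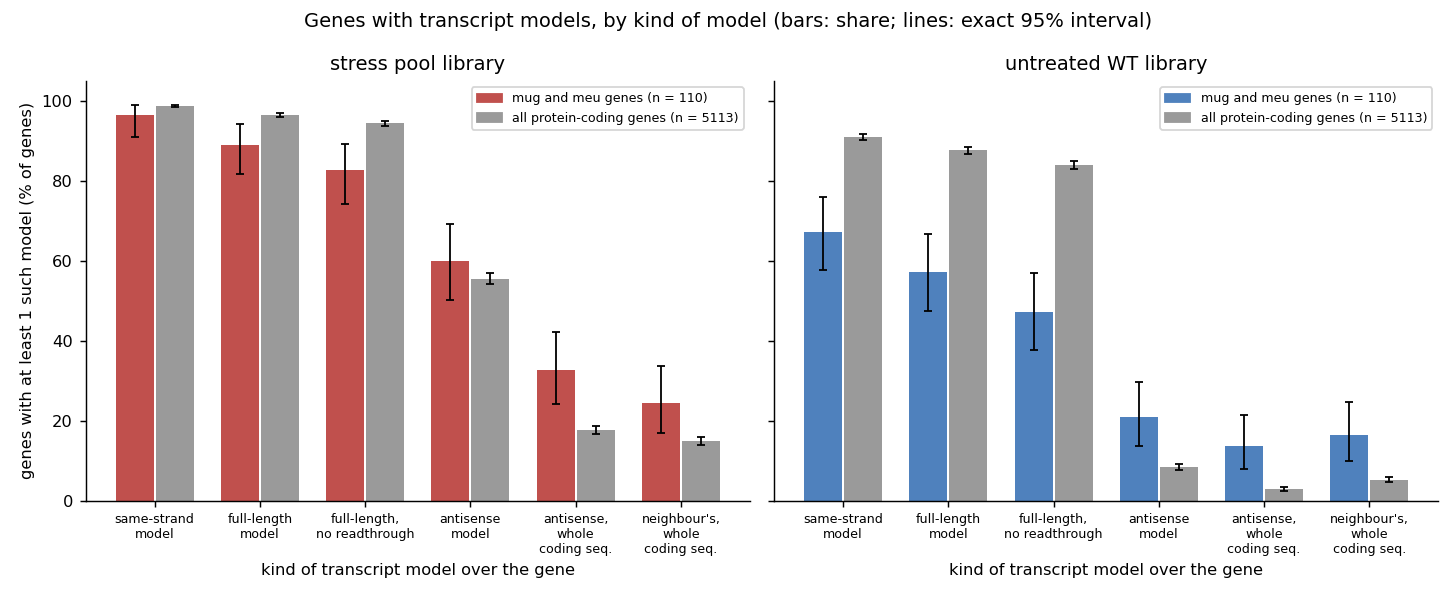
Share of genes (%, vertical axis) with at least 1 model of each kind (horizontal axis) in the stress pool library (left) and the untreated WT library (right), for the 110 mug and meu genes (coloured bars) and all 5113 protein-coding genes (grey bars), with exact 95% intervals as lines. In untreated WT the members lie below all genes for same-strand and full-length models, 67.3% against 91.1% and 57.3% against 87.7%, and above them for antisense models, 20.9% against 8.41%.

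The members also had fewer models each. The median was 6 same-strand models per member in the stress pool and 2 in untreated WT, against 10 and 4 over all protein-coding genes, and the members' coding sequences are shorter (median 897 nt, against 1137 nt). Within each class of coding length the share with a same-strand model in untreated WT was lower for the members. It was 56.2% of 32 members under 600 nt and 71.1% of 1020 other genes, 76.2% of 42 members from 600 to 1199 nt and 95.1% of 1631 other genes, and 66.7% of 36 members of 1200 nt and over and 98.0% of 2352 other genes. Among other genes the share grew with coding length, while the longest members had a share close to that of all members.

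The 8 members with the most same-strand models, picked by their number over both libraries, are given next. The gene with the most models was mug161 (chromosome I, 634738 to 636959, plus strand), which encodes a CwfJ family splicing factor. It had 39 same-strand models in the stress pool, 30 of them full-length, and 18 in untreated WT, 15 of them full-length. Next came mug162 on chromosome I with 32 in the stress pool and 14 in untreated WT, and mug89 on chromosome II, a Lem3 family subunit of a phospholipid-translocating ATPase complex, with 25 and 17. The BAR domain gene mug64 had 27 in the stress pool and 13 in untreated WT. For mug113 the numbers were 28 in the stress pool and 10 in untreated WT. The uncharacterised mug8 had 26 in the stress pool and 8 in untreated WT. Meu34, a ubiquitin-protein ligase, had 22 in the stress pool and 7 in untreated WT. The PX/PXA domain gene mug122 had 20 in the stress pool and 8 in untreated WT. All 8 of these genes had more models in the stress pool than in untreated WT. The median over all protein-coding genes differed in the same direction, at 10 and 4 per gene, so this is not particular to them.

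**Figure D2:**
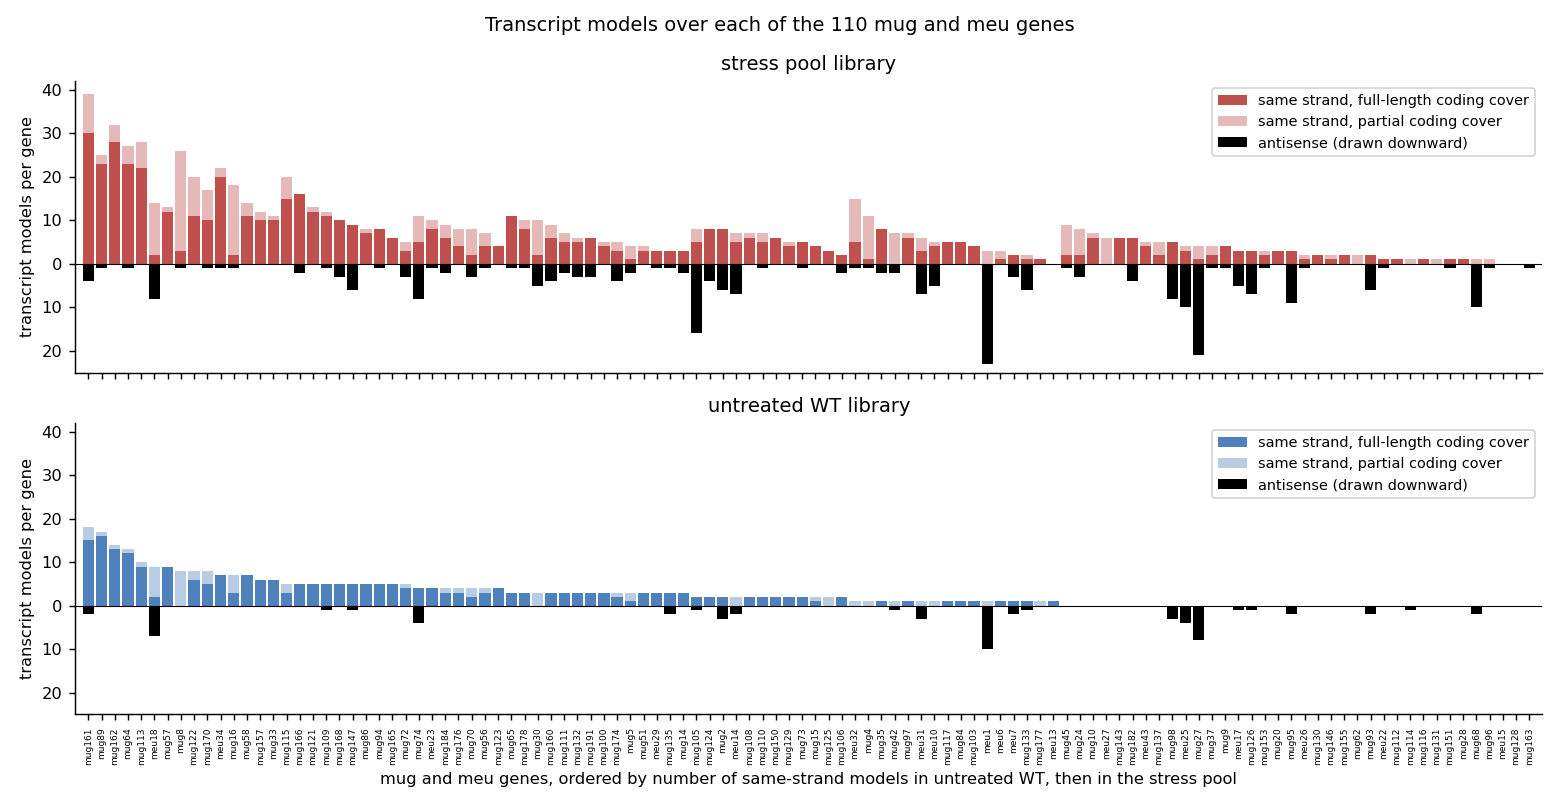
Transcript models (number, vertical axis) over each of the 110 members (horizontal axis, ordered by same-strand models in untreated WT and then in the stress pool) in the stress pool (top) and untreated WT (bottom), with full-length same-strand models in full colour, partial ones in pale colour and antisense models as black bars drawn downward. The row runs from mug161, with 39 same-strand models in the stress pool and 18 in untreated WT, to 36 members without any in untreated WT, among which mug27 has 21 antisense models in the stress pool and 8 in untreated WT.

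At the other end, 33 of 110 members had a same-strand model in the stress pool and none in untreated WT, against 7.69% of all protein-coding genes. Of the 33, 27 had a full-length model in the stress pool, against 348 of the 393 such genes among all protein-coding genes. Mug182, an NADHX epimerase that repairs hydrated NADH, and mug143 each had 6 in the stress pool, all full-length, and 0 in untreated WT. Mug9 had 4 in the stress pool, again all full-length, and 0 in untreated WT. Meu43 had 5 in the stress pool, 4 of them full-length, and 0 in untreated WT. Meu25 had 4 with 3 full-length and meu17 had 3, all full-length, in the stress pool, and neither had a same-strand model in untreated WT. The stress pool held more models over all genes as well, and the part of depth, genotype or treatment in the difference was not tested.

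No same-strand model was found in either library for 3 members, meu15, mug128 and mug163. This was 2.73% of the members (exact 95% interval 0.566 to 7.76%), against 1.25% of all protein-coding genes. The opposite case, a model in untreated WT and none in the stress pool, held for meu13 and for no other of the 5113 protein-coding genes. Meu13 (chromosome I, 977709 to 978637, plus strand) is the homologous-pairing protein 2 of meiotic recombination. Its single untreated WT model began 220 nt before the first codon, ended 109 nt after the stop codon and kept all 4 annotated introns, so it covered the coding sequence in 1 unspliced exon.

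Full-length cover did not always mean a transcript of the gene's own. A model was called readthrough when it also covered at least 50% of the coding sequence of another gene on the same strand. Without such models, 91 members had a full-length model in the stress pool (82.7%, exact 95% interval 74.3 to 89.3%) and 52 in untreated WT (47.3%, 37.7 to 57.0%), against 94.4% and 84.1% of all protein-coding genes. Members whose full-length cover came from readthrough alone numbered 7 in the stress pool and 11 in untreated WT, of 110 each, against 1.96% and 3.62% of all genes. All full-length models of mug168 also covered the upstream autophagy gene atg38, 10 of 10 in the stress pool and 5 of 5 in untreated WT. Those of meu34 also covered rpp1, a subunit of RNase P and RNase MRP, in 19 of 20 in the stress pool and 7 of 7 in untreated WT. Those of mug94 also covered nht1, an Ino80 complex subunit, in 7 of 8 in the stress pool and 5 of 5 in untreated WT. In mug98, all 5 full-length models of the stress pool also covered the upstream gene SPBC15D4.13c. The full-length models that were not readthrough began a median of 199 nt before the first codon in the stress pool and 204 nt in untreated WT. Over all genes the medians were 133 and 123 nt. These medians are over models and not genes, so genes with many models weigh more. Mug161 gave 30 of the members' 459 such models in the stress pool and 15 of 191 in untreated WT.

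Partial cover alone was seen for 8 members in the stress pool and 11 in untreated WT, of 110 each, against 2.33% and 3.34% of all protein-coding genes. Over all models of the members, 244 of 831 in the stress pool and 57 of 307 in untreated WT were partial. Over all protein-coding genes it was 16371 of 59325 and 4441 of 25399, close to the members. Of the members' partial models, 98 in the stress pool and 19 in untreated WT fell short at the 5′ end alone, and 114 in the stress pool and 26 in untreated WT at the 3′ end alone. Over all genes, 5867 and 1724 fell short at the 5′ end alone, and 7813 and 2122 at the 3′ end alone. Meu27 (chromosome III, 1061503 to 1064195, minus strand) had 6 same-strand models in the stress pool and 0 in untreated WT, and none of the 6 was full-length. They fell into 2 sets. In 3 of them the start lay 413, 367 and 88 nt before the first codon and the end lay inside the coding sequence, the longest stopping 61 nt short of its end with 97.2% of the coding bases covered. The other 3 began 434, 597 and 638 nt inside the coding sequence and ended 418 to 469 nt beyond it. Together they covered the gene, with no single model that spanned it. Meu1, annotated as meu1-1, had no full-length model either, with 3 models in the stress pool and 1 in untreated WT that covered at most 62.6% and 25.3% of the coding sequence. Between an end at 589 nt and a start at 872 nt its coding sequence was covered by no stress pool model.

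Mug8 (chromosome I, 2445242 to 2447714, plus strand) differed from the annotation at both ends. None of its 8 untreated WT models was full-length, because every one began 28 nt inside the annotated coding sequence, upstream of the next in-frame ATG at codon 17. In the stress pool, 10 of 26 models began at the same position and 13 began upstream of the first codon. Its models also ended in 2 regions. In untreated WT, 6 models ended 754 or 810 nt short of the end of the coding sequence and 2 ended 80 and 130 nt after it. The 3 full-length models of the stress pool ended at the same 2 distal places. The authors merged starts within 100 nt, so the shared start position is that of the merged model. Mug8 was picked out for this detail after its values were seen.

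Splicing was examined at the 83 annotated coding introns of 41 members. In the stress pool, 76 of them were covered by a model that could show splicing or retention, and 43 in untreated WT. At least 1 model spliced the intron exactly as annotated for 75 in the stress pool (90.4%) and 37 in untreated WT (44.6%), against 97.6% and 88.5% of the 5024 coding introns of all protein-coding genes. At least 1 model retained it for 42 in the stress pool (50.6%) and 20 in untreated WT (24.1%), against 73.2% and 30.8% of all coding introns. Of the introns that were covered, 55.3% were retained at least once in the stress pool and 46.5% in untreated WT, against 74.1% and 34.2% over all genes, so the members lay below all genes in the stress pool and above them in untreated WT. The members had fewer same-strand models per gene than all genes, and the part of this in these shares was not tested. In untreated WT 6 of the 20 were never seen spliced, against 64 of the 1545 retained introns of all protein-coding genes. Of the 6, 4 lay in the single model of meu13. Counted over every pair of a model and an intron, 25.9% kept the intron in the stress pool and 20.8% in untreated WT, against 19.1% and 10.9% over the other protein-coding genes. Models of 1 gene share their source, so these pairs are not independent. A few genes also supplied many of the pairs. Of the 60 pairs that kept an intron in untreated WT, intron 3 of mug161 gave 16, intron 1 of mug64 gave 6 and meu13 gave 4. In the stress pool intron 3 of mug161 gave 29 of 193. The shares therefore lean on a few genes, and they were not computed without these. If kept alone, the intron brings a stop codon into frame within its own bases for 39 of the 46 introns that were retained in either library, and later for 5. In 2 the reading frame ran through to the annotated stop codon. Over all 83 member introns, retained or not, these counts were 72, 7 and 3, so they are not particular to the retained introns.

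Among the members with the most intron-retaining models, introns of the same gene behaved differently. In mug161, introns 1 and 2 were spliced in 35 and 36 models of the stress pool and in 17 and 18 of untreated WT, with no model that kept either of them. Intron 3 was spliced in 7 models and kept in 29 in the stress pool, and spliced in 2 and kept in 16 in untreated WT. Intron 4 lay between, with 22 spliced and 14 kept in the stress pool, and 14 spliced and 4 kept in untreated WT. In mug184 (chromosome II, 299347 to 301391, minus strand) intron 1 was spliced in all 7 stress pool models and all 3 untreated WT models that covered it, whereas intron 2 was kept in all 9 stress pool models and all 4 untreated WT models. Intron 2 of mug184 is 156 nt long, a multiple of 3, and is 1 of the 2 retained introns that leave the frame open to the annotated stop codon. The introns that were spliced and those that were kept are set side by side here, read along the gene's strand, with the first 6 and last 3 bases, the splice site ends, in capitals.
mug161 intron 1, chrI:634972-635068, never retained: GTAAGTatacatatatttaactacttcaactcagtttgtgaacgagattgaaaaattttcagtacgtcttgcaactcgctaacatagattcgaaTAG
mug161 intron 3, chrI:636177-636233, mostly retained: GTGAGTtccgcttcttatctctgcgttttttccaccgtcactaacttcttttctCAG
mug184 intron 1, chrII:301109-301164, never retained: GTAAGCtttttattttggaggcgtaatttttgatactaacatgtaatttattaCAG
mug184 intron 2, chrII:300075-300230, always retained: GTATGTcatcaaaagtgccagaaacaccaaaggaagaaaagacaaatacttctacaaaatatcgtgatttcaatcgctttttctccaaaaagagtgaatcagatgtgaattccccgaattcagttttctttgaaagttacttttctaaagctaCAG
All 4 begin with GT and end with AG. No link between these letters and retention was tested.

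Both forms were also seen in 4 further genes, given as examples. In mug8, intron 1 was spliced in 13 models and kept in 13 in the stress pool, and spliced in 5 and kept in 3 in untreated WT. Its intron 2 was spliced in 14 and kept in 12 in the stress pool, and spliced in 4 and kept in 4 in untreated WT. In mug64, intron 1 was spliced in 17 and kept in 8 in the stress pool, and spliced in 7 and kept in 6 in untreated WT, while introns 2, 3 and 4 were kept in 7, 2 and 6 models of the stress pool and in 4, 1 and 3 of untreated WT. For mug162, intron 1 was spliced in 20 and kept in 12 in the stress pool, and spliced in 12 and kept in 2 in untreated WT. Its introns 2 and 3 were kept in 4 and 1 stress pool models (12.5% and 3.57%) and in 0 of untreated WT. For mug170, an arrestin family adaptor, intron 1 was spliced in 10 and kept in 7 in the stress pool, and spliced in 6 and kept in 1 in untreated WT. Its introns 2 and 3 were kept in 3 and 0 stress pool models and in 0 of untreated WT. In untreated WT, intron 1 of mug162 and of mug170 was kept in 14.3% of models each, against 10.9% of pairs over the other protein-coding genes.

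**Figure D3:**
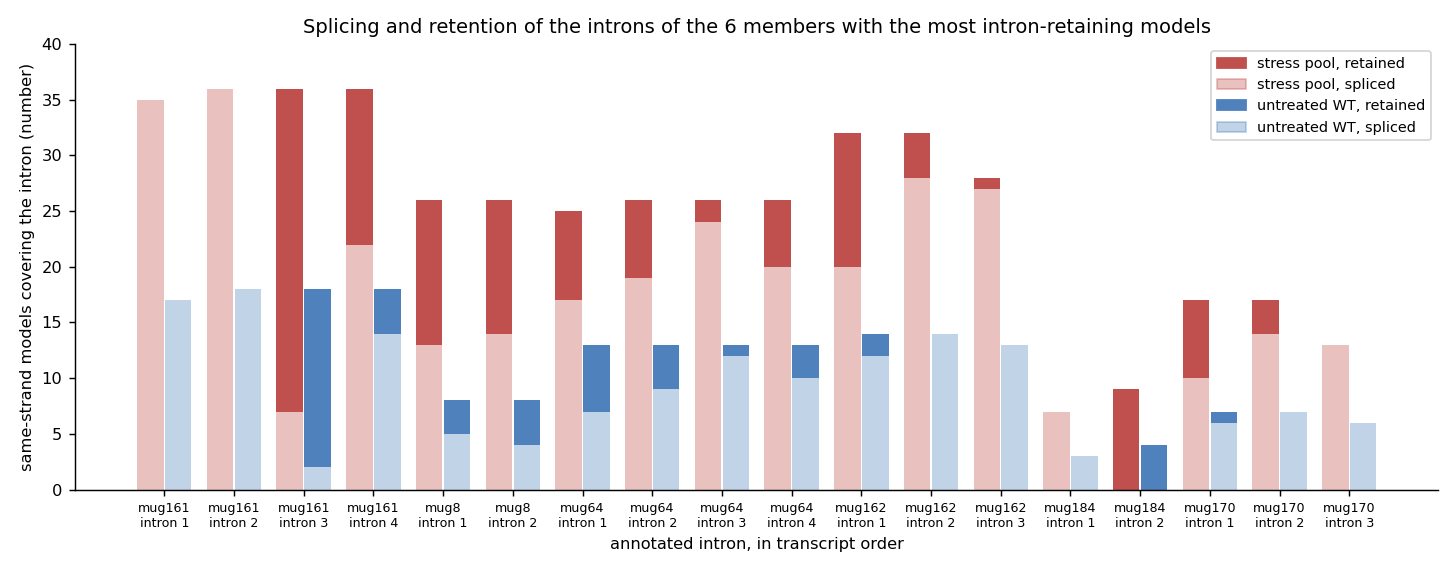
Same-strand models (number, vertical axis) in which each annotated intron (horizontal axis, in transcript order) was spliced as annotated (pale) or retained (full colour), in the stress pool (left bar of each pair) and untreated WT (right bar), for the 6 members with the most intron-retaining models. Intron 3 of mug161 is retained in 29 models of the stress pool and 16 of untreated WT, and intron 2 of mug184 in every model that covers it.

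Mug16 was also named after its values were seen. It encodes an UNC-50 family protein and is annotated with a coding exon of 4 nt between introns of 71 and 66 nt. In 13 of its 18 stress pool models and 4 of its 7 untreated WT models, 1 intron of 141 nt ran across this exon, so none of these models was full-length. No model in either library held the small exon as annotated. Whether the 4 bases were present in the reads was not tested.

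Antisense models were those with an exon over a member on the opposite strand and no exon overlap with any gene on their own strand, once annotated lncRNA and ncRNA genes had been removed from the reference. In the stress pool 66 of 110 members had an antisense model (60.0%, exact 95% interval 50.2 to 69.2%), against 55.5% of all protein-coding genes, a share inside the interval. In untreated WT 23 members had a model of this kind (20.9%, 13.7 to 29.7%), against 8.41% of all genes, which lay below the interval. Models that ran over the whole coding sequence were found for 36 members in the stress pool (32.7%, 24.1 to 42.3%) and 15 in untreated WT (13.6%, 7.84 to 21.5%), against 17.6% and 2.84% of all genes. In untreated WT the share was higher in the members than in other genes in each class of coding length, at 18.8% and 3.73% under 600 nt, 16.7% and 6.19% from 600 to 1199 nt, and 27.8% and 11.4% at 1200 nt and over.

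The 257 antisense models over members in the stress pool had a median length of 1508 nt and 29 of them were spliced, and the 64 in untreated WT had a median of 1651 nt with 4 spliced. Over all protein-coding genes, 1215 of 9640 antisense models were spliced in the stress pool and 66 of 737 in untreated WT. The median pair of a model and a member covered 87.2% of the coding sequence in the stress pool and 88.2% in untreated WT, against 65.5% and 79.7% over all genes. Most began near or past the gene's 3′ end. In the stress pool 113 began beyond the 3′ end (44.0%), 57 in the 3′ UTR (22.2%) and 79 in the coding sequence (30.7%). In untreated WT 32 of 64 began beyond the 3′ end, 17 in the 3′ UTR (26.6%) and 12 in the coding sequence (18.8%). These shares count models, and a few genes supplied many of them. Meu1 alone gave 23 of the 79 coding-sequence starts in the stress pool and 10 of the 12 in untreated WT. The shares were not computed without it. Starts were placed for the members only, so this split is not shown to be particular to them. It also depends on annotation, since 22 of 110 members have no annotated 3′ UTR, against 385 of all 5113 genes. Of the antisense models over members, 221 in the stress pool (86.0%) and 53 in untreated WT (82.8%) overlapped a non-coding RNA gene that RefSeq already annotates on that strand. Over all protein-coding genes the shares were 88.2% and 88.9%.

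The members with the most antisense models were picked by their number over both libraries or in untreated WT. Their presence in untreated WT therefore follows in part from the choice. The authors merged starts within 100 nt, so a start position shared by models of 1 gene is that of the merged models. Meu1 (chromosome I, 3802551 to 3804954, plus strand) led with 23 antisense models in the stress pool and 10 in untreated WT, beside 3 and 1 same-strand models. All of them began inside the coding sequence, and 16 of 23 in the stress pool and 6 of 10 in untreated WT began within 10 nt of a place about 650 nt before the stop codon, at -654 and -649 nt. Mug27 (chromosome III, 1677093 to 1679436, minus strand), which encodes the protein kinase Mug27/Slk1 of forespore membrane formation, had 21 antisense models in the stress pool and 8 in untreated WT, beside 4 same-strand models, 1 of them full-length, in the stress pool and 0 in untreated WT. After this merging, 15 of 21 antisense models in the stress pool began within 10 nt of a position 281 nt past the stop codon. In untreated WT 7 of 8 began within 10 nt of one 275 nt past it. All antisense models of mug27 overlapped SPNCRNA.583, an annotated non-coding gene.

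Mug105, a protease for a ubiquitin-fold modifier, had 16 antisense models in the stress pool and 1 in untreated WT, and 10 of the 16 covered its whole coding sequence. Meu18 had 8 antisense models in the stress pool and 7 in untreated WT. Of these, 6 and 5 began within 10 nt of a place 469 nt past the stop codon, again a position of merged models. Mug74 had 8 in the stress pool and 4 in untreated WT. Meu31 had 7 in the stress pool and 3 in untreated WT. Mug2 had 6 in the stress pool and 3 in untreated WT. Mug105 thus differed most between the libraries and meu18 least among these genes.

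**Figure D4:**
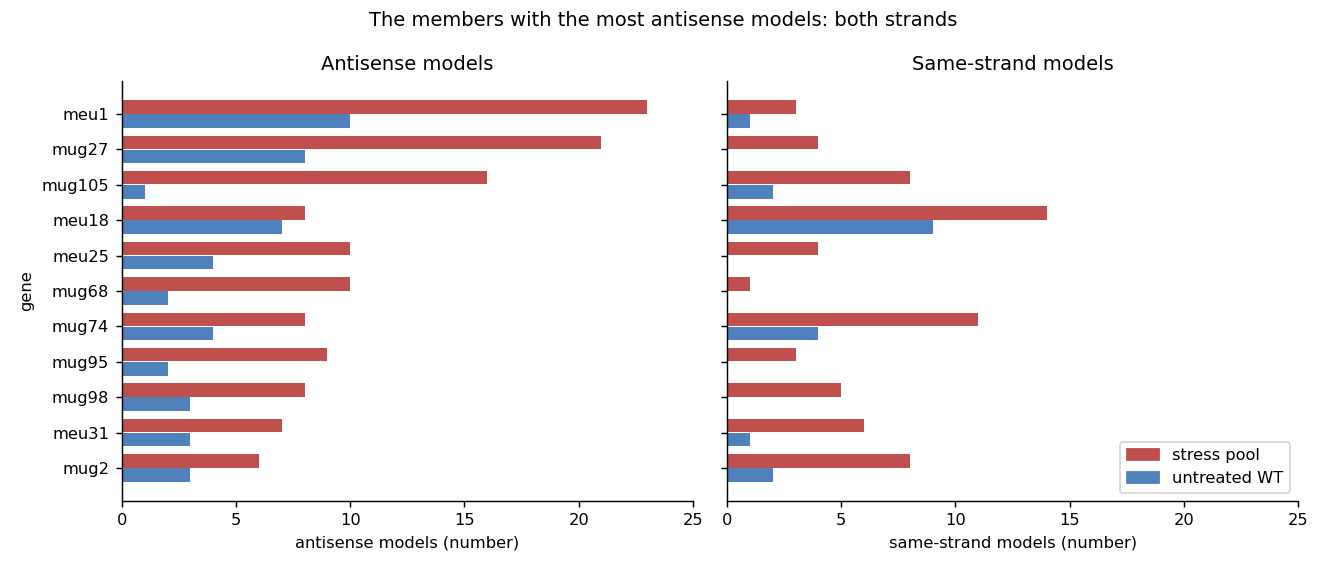
Antisense models (left) and same-strand models (right), in numbers on the horizontal axes, for the 11 members with the most antisense models over both libraries or in untreated WT, with the stress pool as the upper bar of each pair and untreated WT as the lower bar. Meu1 and mug27 have the most, 23 and 21 in the stress pool and 10 and 8 in untreated WT, while mug27, meu25, mug68, mug95 and mug98 have no same-strand model in untreated WT.

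In 9 members (8.18%, exact 95% interval 3.81 to 15.0%), untreated WT had an antisense model and no same-strand model, against 1.04% of all protein-coding genes. They were mug27 with 8 antisense models, meu25 with 4, mug98 with 3, mug68, mug93 and mug95 with 2 each, and meu17, mug114 and mug126 with 1 each. For meu25, 1 of the 4 reached the coding sequence, and the other 3 overlapped 35 to 99 nt of its 3′ UTR, as did 5 of its 10 antisense models in the stress pool with 45 to 99 nt, whereas every antisense model of the other 8 members in untreated WT reached the coding sequence. In the stress pool mug68 had 10 antisense models and 1 same-strand model, mug95 had 9 and 3, meu25 had 10 and 4, and mug98 had 8 and 5. Antisense models outnumbered same-strand models at 14 members in the stress pool (12.7%) and at 13 in untreated WT (11.8%), against 5.71% and 1.94% of all genes. Counting opposite-strand models of any kind, those of neighbouring genes included, 27 members (24.5%) had such a model and no same-strand model in untreated WT, against 4.15% of all genes.

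**Figure D5:**
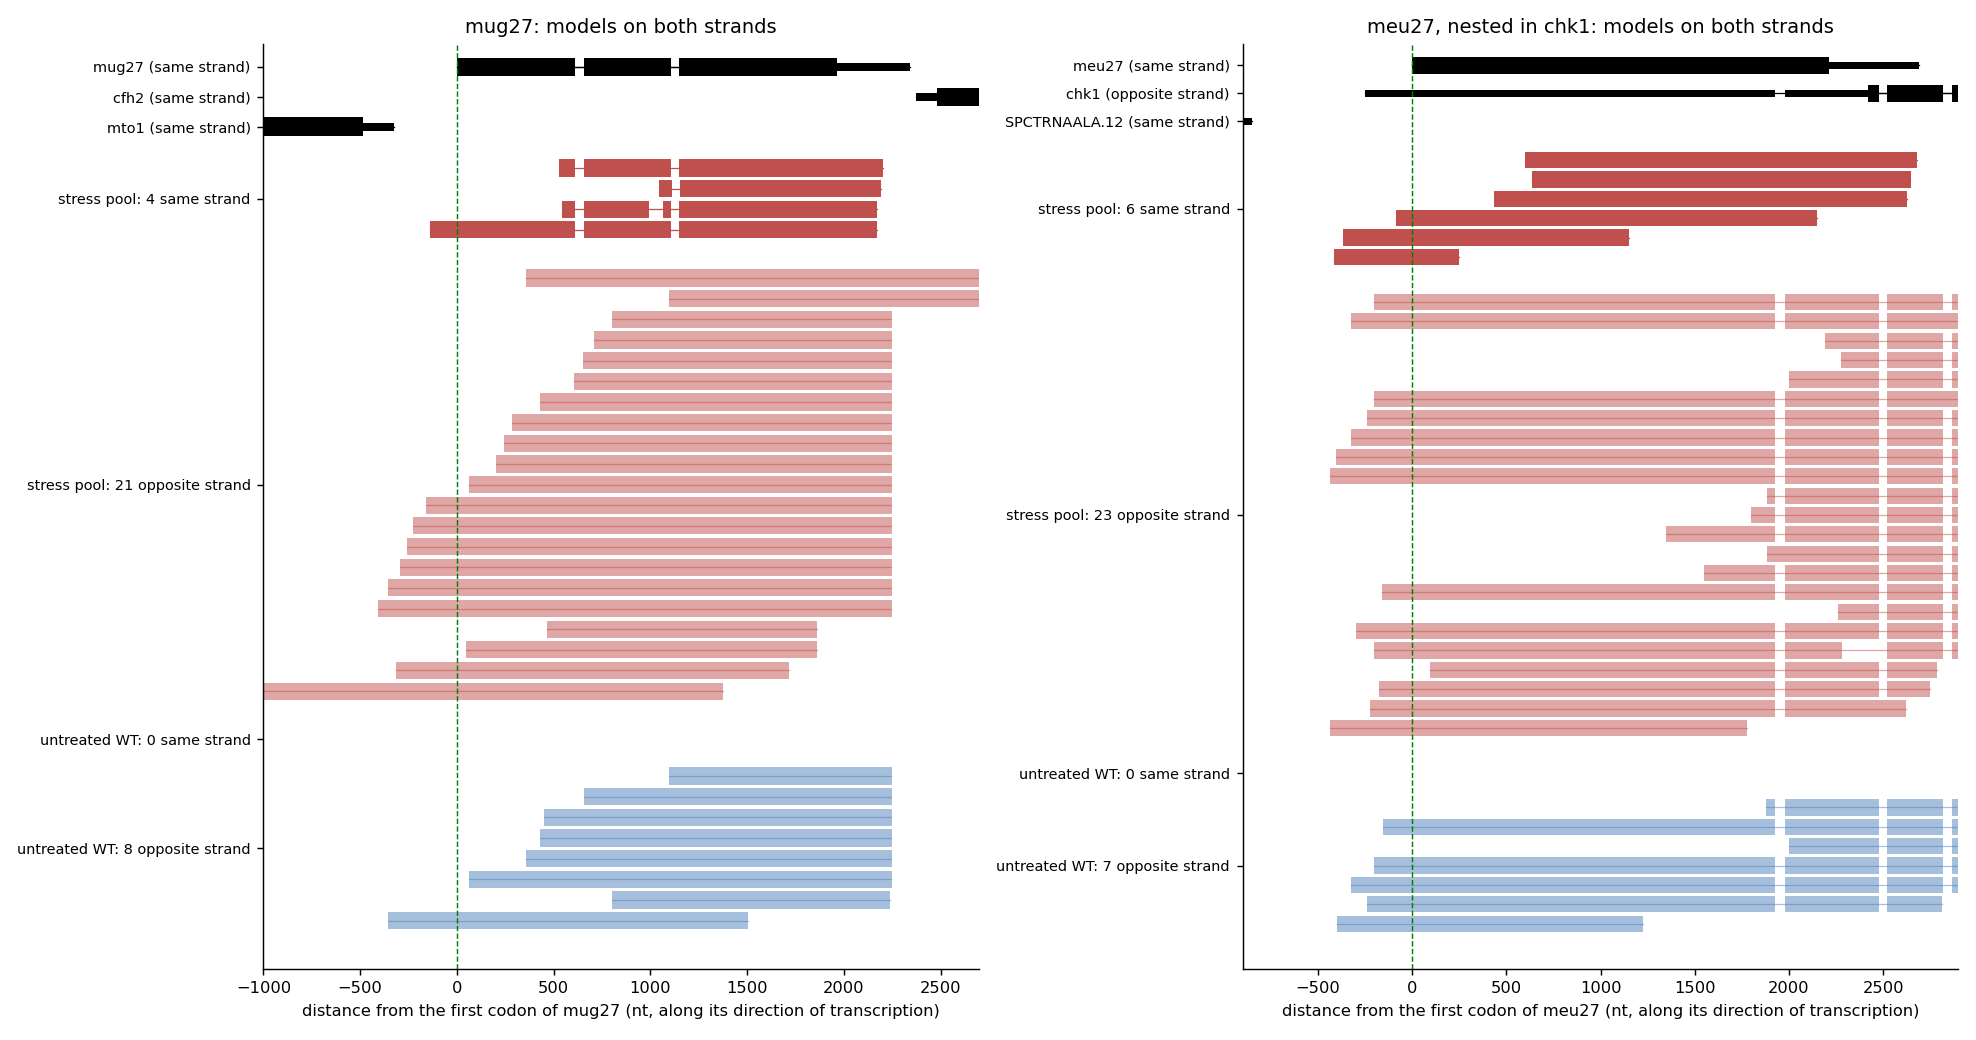
Maps of mug27 (left) and of meu27 with its host chk1 (right): annotated exons (black, coding parts thicker) above the models of the stress pool (red) and untreated WT (blue), same-strand models in full colour and opposite-strand models pale, by distance from the member's first codon (nt, dashed line at 0). Over mug27 the opposite-strand models, 21 in the stress pool and 8 in untreated WT, mostly share 1 merged start past the stop codon. Over meu27 the opposite-strand models are mostly the 3′ parts of chk1 models. Same-strand models appear in the stress pool alone, 4 for mug27 and 6 for meu27.

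Models of neighbouring genes also ran over members from the opposite strand. A model that belonged to another gene covered the whole coding sequence of 27 members in the stress pool (24.5%, exact 95% interval 16.8 to 33.7%) and of 18 in untreated WT (16.4%), against 14.9% and 5.18% of all protein-coding genes. Of these, 12 in the stress pool and 10 in untreated WT were nested genes, whose annotated span lies wholly inside a gene on the opposite strand. Nesting was annotated for 14 members (12.7%, 7.14 to 20.4%), against 3.91% of all protein-coding genes. For every one of the 14 the nesting involved the host's untranslated parts, since no member had its coding span inside the coding span of its host. Of the nested members, 13 had a same-strand model in the stress pool (92.9%) and 5 in untreated WT (35.7%), against 93 (96.9%) and 69 (71.9%) of the 96 members that were not nested. Among the 186 other nested genes the shares were 96.2% in the stress pool and 80.1% in untreated WT. By the rule on own-strand exons, a host's model over a nested member was not counted as antisense.

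The hosts were in part essential or well-studied genes. Meu27 lies in the 3′ part of chk1, the DNA damage checkpoint kinase, which had 22 models over meu27 in the stress pool and 6 in untreated WT, beside the 6 and 0 same-strand models of meu27. The coding sequences of the 2 genes do not overlap. Mug128 lies in grc3, a polynucleotide kinase of ribosomal RNA processing, with 29 grc3 models over it in the stress pool and 21 in untreated WT and no model of its own. Mug62, a putative AMP binding enzyme with 4464 nt of coding sequence, lies in alp41, a GTP-binding protein of tubulin folding, with 19 alp41 models over it in the stress pool and 6 in untreated WT, and 2 partial models of its own in the stress pool. Meu6 lies in clr4, which encodes the H3K9 methyltransferase of heterochromatin, with 7 and 3 clr4 models over it, and had 3 same-strand models in the stress pool and 1 in untreated WT.

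Some nested members had models in both libraries. Mug113, nested in the glutathione synthetase gene gsa1, had 28 same-strand models in the stress pool and 10 in untreated WT, beside 16 and 9 gsa1 models over it. Of its 22 full-length models in the stress pool and 9 in untreated WT, 9 and 3 were not readthrough from its upstream neighbours. Mug97 lies in another member, mug57. It had 7 same-strand models in the stress pool and 1 in untreated WT, while mug57 had 13 and 9, all of which ran over mug97. Mug117, nested in the tRNA nucleotidyltransferase gene cca2, had 5 in the stress pool and 1 in untreated WT, of which 4 and 1 also covered the upstream gene SPCC645.12c, so that it had 1 and 0 models of its own. The remaining nested members were mug143 in dbs2, mug28 in mrp17, mug130 in SPAC8F11.04, mug108 in rga3, mug131 in SPBC1861.05, mug112 in SPCC338.03c and mug137 in erm2, and of these only mug108 had a same-strand model in untreated WT. The members mug57, mug115, mug162 and mug163 were themselves hosts (3.64%), against 3.72% of all protein-coding genes.

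Members were classed by words of their annotated product. The 6 of the transport class had same-strand models throughout in the stress pool and for 5 in untreated WT. The enzyme class of 14, which by its words also holds the Rab GTPase binding protein mug109, had them for 14 in the stress pool and 10 in untreated WT. The 70 members with no function given had them for 67 and 45. Of the 6 genes of the spore wall and membrane class, which holds mug65 and mug56, annotated in spore wall assembly, and meu14, a PIL domain protein of the forespore membrane, 6 had a same-strand model in the stress pool and 5 in untreated WT, and 6 and 3 a full-length model. Full-length models were present for 15 of 19 meu genes (78.9%) and 83 of 91 mug genes (91.2%) in the stress pool, and for 7 (36.8%) and 56 (61.5%) in untreated WT. Antisense models in untreated WT were present for 7 of 19 meu genes (36.8%) and 16 of 91 mug genes (17.6%). These classes are small and the differences between them were not tested.

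Other meiotic genes known as targets of RNA elimination, or as its regulators, were looked up as a list of 10, of which 9 were found by symbol. Mei4, the forkhead activator itself, had 2 same-strand models in the stress pool and 0 in untreated WT. Mek1, a meiotic kinase, had 6 in the stress pool and 0 in untreated WT. The dynactin subunit gene ssm4 had 1 and the cyclin gene crs1 had 2 in the stress pool, and neither had any in untreated WT. Rec8, the meiotic cohesin, had 6 in the stress pool and 1 in untreated WT, spo5 had 3 and 1, and mcp7 had 7 and 2. The regulators had more models, with 25 same-strand models in the stress pool and 12 in untreated WT for mmi1, and 15 and 8 for red1, a protein of the same elimination pathway.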

How the data were processed

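The authors grouped HiFi reads into isoforms (Iso-Seq4), aligned these with minimap2 and merged redundant ones with TAMA Collapse, at a tolerance of 100 nt for starts and for splice junctions. The deposited files give the exons of each model. The score column, which the authors left at 40 for each model, went unused, and the other deposited values (start, end and exon number) were used as given. The submitters' processing notes name ASM294v2. ASM294v3 was used here once its GT-AG introns and chromosome lengths had been compared with the models, and coordinates are 1-based.

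RefSeq genes were compared with the models in Python 3.11.15, with SciPy 1.17.1 for intervals, NumPy 2.4.6, and Matplotlib 3.10.9 for drawing. Touching exon blocks were joined. Antisense follows class x of gffcompare, worked out from exon overlaps. Shares carry exact Clopper-Pearson 95% intervals for counting error only. No test compared the libraries, or the members with other genes. The steps were tested on simulated data.

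Members and lists were chosen with earlier results of these data known. Members named in the text were those with the most same-strand models, the most full-length models in the stress pool with none in untreated WT, the most antisense models over both libraries or in untreated WT, the most intron-retaining models, every nested or hosting member, and meu27. A member that this rule names is not reported here. Genes outside this rule are named as members of a small count or as examples chosen after their values were seen.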

Additional observations from a re-analysis of the deposited data

How the results depend on the processing

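Of 32 pairs of a result and an alternative, 27 stayed within 1.5 times the reported count. The other 5 moved by construction. With annotated lncRNA and ncRNA genes kept in the reference, members with an antisense model numbered 12 in the stress pool and 2 in untreated WT, against 66 and 23 as reported, and antisense models over members 36 and 11, against 257 and 64. With nesting defined as the member's coding span inside the host's coding span, the count was 0, against 14. Counting models that share junctions and both ends within 100 nt once gave 195 antisense models in the stress pool and 46 in untreated WT. Leaving out readthrough models gave 99 members with a same-strand model in the stress pool and 61 in untreated WT.

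No paired analysis was possible because each condition had 1 library and no result came from a test. Depth is unknown, and a member without a model was not detected, which differs from not transcribed. Models of 1 gene often differ only in their ends, so a number of models is not a level.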

Other observations

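RefSeq annotates 5 further meu genes as non-coding RNAs, which the rule on protein-coding genes left out. Meu16 had 12 same-strand models in the stress pool and 2 in untreated WT, and meu20 had 12 and 3. Meu11 had 3 in the stress pool and 1 in untreated WT, both with a model over its whole length. Meu19 had 1 in each library, covering 99.2% and 99.1% of its length, and meu3 had 1 in the stress pool and 0 in untreated WT. On the opposite strand, meu16 had 10 models in the stress pool and 3 in untreated WT, and meu20 had 8 and 0.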
